A study of Mus musculus with 6 samples.

Results

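The genes described here encode the proteins of the cytosolic ribosome and their close paralogs, measured as RNA in NIH-3T3 cells, an established mouse fibroblast line. They are the rows of the deposited table whose GENCODE M21 symbol starts with Rpl or Rps and a digit, together with Rpsa, Rplp0, Rplp1 and Rplp2. Of 161 such rows, 11 that encode S6 kinases or a binding protein (Rps6k genes and Rps19bp1) were left out, as were 63 with a pseudogene symbol (-ps) and 5 that the annotation types as pseudogenes. This left 82 of the 16540 genes in the table: 46 core proteins of the large subunit, 31 core proteins of the small subunit and 5 paralogs. All 77 core symbols listed for the mouse ribosome were present. The 5 paralogs were Rpl22l1, Rpl36al, Rpl7l1, Rps27l and Rps27rt. Rpl3l, Rpl10l, Rpl39l, Rps4l and Rps12l1 have a place in the M21 annotation but were not analysed here.

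The cells carried Cas9 and a guide RNA, both delivered by lentivirus, and were kept as uncloned pools after selection with 2 ug/mL puromycin. The control guide was R26 sg1, sequenced as 2 libraries. The guides PC sg2 and PC sg5, also with 2 libraries each, are named for pyruvate carboxylase, the mitochondrial enzyme that makes oxaloacetate from pyruvate, whose mouse gene is Pcx. All 3 groups spent 48 h in DMEM with 0.2 mM glutamine and 10% dialyzed serum, so low glutamine is shared by the controls, and polyadenylated RNA was sequenced. The series asks, per its title, whether fibroblasts need pyruvate carboxylase to make collagen, and the comparison that bears on these genes is both PC guides against the control guide. Whether the paired libraries of each guide stem from different cultures is not stated in the labels; p-values therefore cover only the spread among the samples sequenced, and that spread could be technical.

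Each library held 22895172 to 71710049 recovered reads, the fewest in PC sg5 replicate 2. Pcx had 2914 and 3015 normalised counts under R26 sg1, 316 and 375 under PC sg2 and 713 and 716 under PC sg5, so every PC library had less RNA of the gene that its guide names. All 8 fibroblast markers were in the table and all 8 fell with the PC guides, their sum going from 1224500 and 1274700 normalised counts under R26 sg1 to between 510513 and 530787 under the PC guides. Of 7 leukocyte markers 4 were listed (Ptprc, Adgre1 and Itgam were not), summing to 1850 and 1941 under R26 sg1 and 1174 to 1259 under the PC guides. The single listed epithelial marker, of 6, reached at most 58.7 and the 2 listed endothelial markers, of 4, summed to at most 53.0. The part of these markers in the results below was not tested.

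The cytosolic ribosome has a small subunit that reads the mRNA and a large subunit that joins amino acids and passes the chain through an exit tunnel. In mammals most ribosomal proteins come from a single active gene each, with many processed pseudogenes elsewhere in the genome, and a few have an expressed paralog. Their mRNAs typically begin at a C followed by a run of pyrimidines, the 5′ terminal oligopyrimidine (TOP) motif, through which mTORC1 is known to control their translation.

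The start of the transcript is shown for members that the results turn on, as 10 bases before and 20 after the start annotated by RefSeq (GRCm38.p6), 5′ to 3′ on the strand of the gene. Capitals mark a C at the annotated start followed by at least 4 C or T. Windows without capitals hold no such run at that exact base, and a run that starts a few bases away is not marked. Rps6, Rps15a, Rpl15 and Rpl18 are core genes that were higher with the PC guides, Rpl37a, Rpl41 and Rpl11 are core genes that were lower, and the last 6 are paralogs and a parent.
Rps6: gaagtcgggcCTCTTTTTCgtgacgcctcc
Rps15a: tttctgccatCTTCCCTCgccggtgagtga
Rpl15: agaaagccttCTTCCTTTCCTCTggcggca
Rpl18: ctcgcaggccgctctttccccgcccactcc
Rpl37a: ctcgccggtctaaaaccgcgcatgcgcatt
Rpl41: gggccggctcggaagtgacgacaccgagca
Rpl11: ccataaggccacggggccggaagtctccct
Rps27: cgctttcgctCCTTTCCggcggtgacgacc
Rps27rt: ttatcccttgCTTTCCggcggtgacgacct
Rps27l: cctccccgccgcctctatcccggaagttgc
Rpl22l1: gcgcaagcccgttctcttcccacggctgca
Rpl36al: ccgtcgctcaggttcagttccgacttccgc
Rpl7l1: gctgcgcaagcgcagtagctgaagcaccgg

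The Rps6 window lies at chr4:86857348-86857377 and the Rps15a window at chr7:118116128-118116157, both on the minus strand. Rpl15 starts within chr14:18270967-18270996 on the minus strand and Rpl18 within chr7:45718061-45718090 on the plus strand. The windows of Rpl37a (chr1:72711250-72711279, plus), Rpl41 (chr10:128549149-128549178, minus) and Rpl11 (chr4:136053374-136053403, minus) hold no marked run. Rps27 (chr3:90213629-90213658, minus) and its retrogene copy Rps27rt (chr9:114982720-114982749, minus) share a run of 19 bases that begins at CTTTCC. The remaining windows are Rps27l (chr9:66946076-66946105, plus, the first of 2 annotated starts), Rpl22l1 (chr3:28805498-28805527, plus), Rpl36al (chr12:69184048-69184077, minus) and Rpl7l1 (chr17:46782637-46782666, minus).

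Ribosomal protein mRNA took a larger share of the counts in PC libraries. All 82 members summed to 5.49% and 5.51% of the normalised counts under R26 sg1, 5.92% and 5.96% under PC sg2 and 6.06% and 6.17% under PC sg5, with no overlap between control and PC libraries. The 46 large-subunit genes went from 3.31 and 3.32% in the controls to between 3.57 and 3.70% under the PC guides. The 31 small-subunit genes went from 2.14 and 2.16% to between 2.30 and 2.41%. The ratio of large to small subunit was 1.54 in both controls, 1.55 and 1.56 under PC sg2 and 1.53 and 1.54 under PC sg5, a range of 1.53 to 1.56 over all 6 libraries. The 5 paralogs together were a small part, 0.0377 and 0.0378% of counts under R26 sg1 and 0.0510 to 0.0532% under the PC guides. Shares depend on all other genes, and the summed fibroblast markers above fell over the same samples. In bulk RNA a change within each cell and a change in the make-up of an uncloned pool cannot be told apart.

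Levels of single members differed widely within the control. Per kilobase of annotated transcript, the highest core gene was Rplp1, an acidic protein of the stalk that recruits elongation factors, at 122564 normalised counts per kb (control mean). Core genes of the large subunit had a median of 40170 per kb and those of the small subunit 44768 per kb. The paralogs had a median of 6523 per kb, from 294 for Rps27rt to 11411 for Rps27l. The lowest core gene per kb was Rps20, at 10690 per kb, whose annotated transcript of 3706 bases is the longest of the members and makes its level per kb low.

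Against the control, single ribosomal protein genes changed in both directions and by little. With both PC guides together, 44 members rose and 22 fell, 66 of 82 (80.5%) past an adjusted p of 0.05, set against 67.9% of all 16526 genes tested (34.3% higher, 33.6% lower). When only the 12921 genes that averaged 50 or more were tested, 67 members passed (81.7%), beside 78.5% of those genes. Of those genes 40.9% were higher and 37.6% lower, and the gap between the 2 shares was narrower. Without the intensity trend in limma 47 members (57.3%) passed, below the 62.4% of all genes in that fit. The order of the 2 shares therefore depended on the intensity trend. The test was limma on log2(normalised count + 1) with Benjamini-Hochberg adjustment over all genes tested. The members' log2 fold changes lay between -0.68 and 0.58 with a median of 0.074, beside -0.0093 for all genes tested. None of the 82 reached a 2-fold change past the threshold, with limma, edgeR or DESeq2, while 17.8% of all genes did; at an unadjusted p under 0.05, 45 members were higher and 23 lower. In 41 members all 4 PC libraries lay above both controls and in 23 all lay below (36.6% of all genes in each direction).

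The balance of higher and lower members depended on the scaling. Quantile normalisation gave 59 higher and 7 lower, beside 36.8% and 30.8% of all genes. A total taken without the 50 most abundant genes gave 48 of 66 calls higher (37.1% of all genes higher, 31.2% lower), and removal of a trend with gene length gave 52 higher and 13 lower (38.9% and 29.7% of all genes). These scalings moved the median log2 fold change of all genes to 0.047, 0.034 and 0.067, and that of the members to 0.18, 0.12 and 0.16. Both subunits showed the mixed pattern with the deposited scaling. In the large subunit 26 genes rose (56.5%), 13 fell (28.3%) and 7 did not pass (median 0.084). In the small subunit 15 rose (48.4%), 9 fell (29%) and 7 did not pass (median 0.033). Over all genes tested 34.3% were higher and 33.6% lower.

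**Figure D1:**
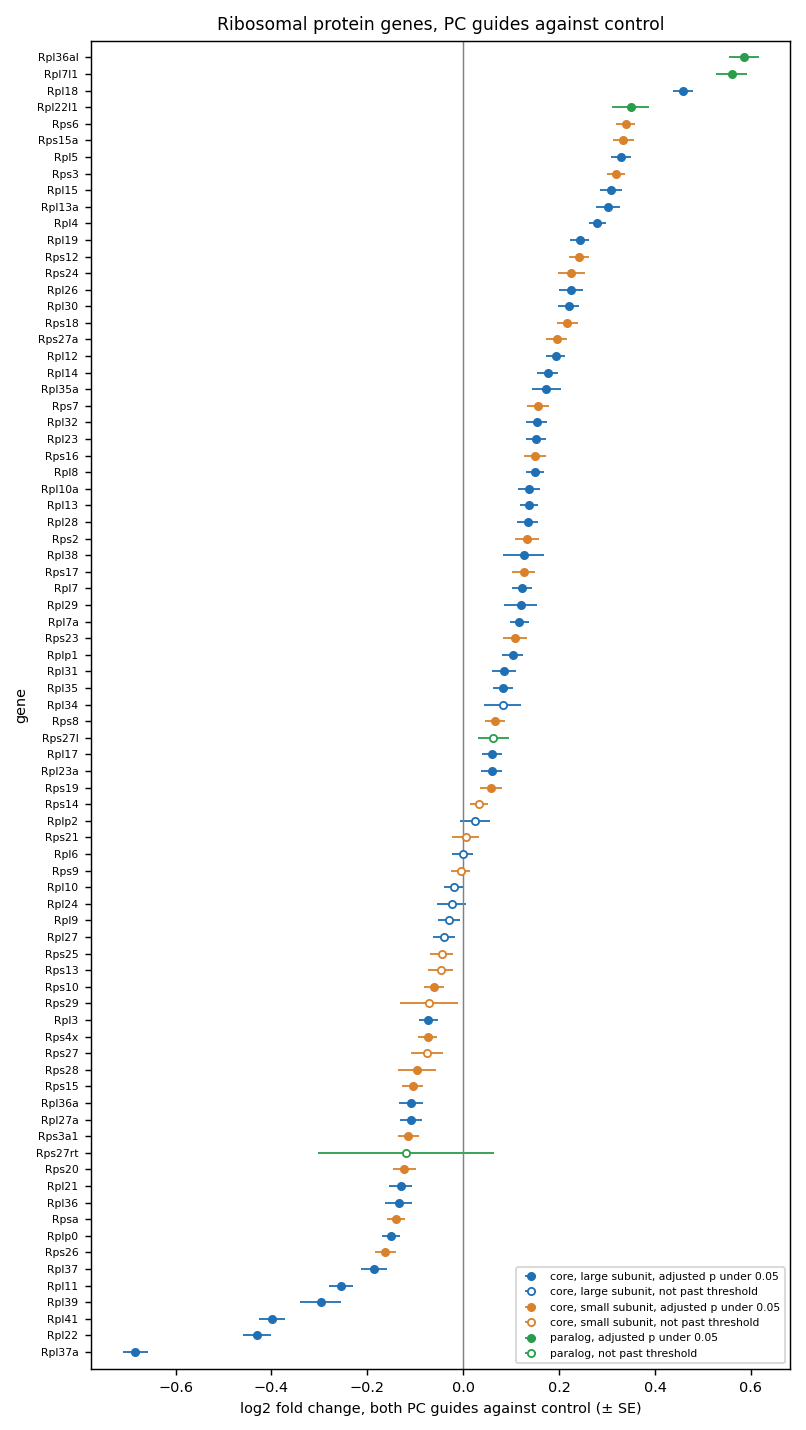
Log2 fold change of both PC guides against the control (x axis) with its standard error for 79 of the 82 members (y axis, ordered by value); blue, orange and green mark large-subunit, small-subunit and paralog genes, and open points did not pass the threshold. The points run from -0.68 for Rpl37a to 0.58 for Rpl36al, with both subunits on either side of 0.

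Among genes of the large subunit, Rpl18 rose most and Rpl37a fell most. Rpl18 (ENSMUSG00000059070), a protein of the outer surface of the large subunit, had 46335 and 47430 normalised counts under R26 sg1, 63898 and 65498 under PC sg2 and 64695 and 63651 under PC sg5. Its log2 fold change was 0.46 ± 0.020 (SE; limma adjusted p = 1.16e-14), and every PC library stood above both controls. Rpl37a (ENSMUSG00000046330), a small zinc-binding protein that contacts rRNA, had 20443 and 20643 under R26 sg1, 12203 and 11918 under PC sg2 and 13843 and 13278 under PC sg5. All 4 PC libraries were lower, at a mean of 62.4% of the control, and the log2 fold change was -0.68 ± 0.026 (SE; limma adjusted p = 8.97e-16).

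Rpl41 encodes the shortest ribosomal protein, with a coding sequence of 75 bases. Its counts were 32884 and 33217 under R26 sg1, 23345 and 23474 under PC sg2 and 28031 and 25676 under PC sg5, a log2 fold change of -0.40 ± 0.028 (SE). Each PC library was below the controls, and PC sg2 was below PC sg5. Rpl39 and Rpl37, also of the large subunit, fell by 0.30 and 0.19 on the log2 scale; after quantile normalisation Rpl37 was at -0.017 and did not pass. On the higher side, Rpl15, Rpl13a (also known as a part of a translation-silencing complex) and Rpl4 had log2 fold changes of 0.31, 0.30 and 0.28, with each of their PC libraries above both controls. Exons of other annotated genes cover 35.4% of Rpl13a.

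Around the exit tunnel, where the new chain leaves the ribosome, 7 of 8 listed genes rose (Rpl4, Rpl17, Rpl19, Rpl23a, Rpl26, Rpl31 and Rpl35) and Rpl39 fell. That is 87.5% higher, beside 56.5% of the core large subunit and 34.3% of all genes, but the median of 0.084 was the same as that of the core large subunit. With PC sg2 alone 4 of the 8 rose, 1 fell and 3 did not pass. Rpl4, whose extension lines the tunnel, had 79385 and 80120 normalised counts under R26 sg1, 98342 and 98072 under PC sg2 and 96535 and 94424 under PC sg5. Rpl39, a short protein of the tunnel wall, had 11107 and 11619 under R26 sg1, 9260 and 8696 under PC sg2 and 10244 and 8843 under PC sg5. The PC ranges of these 2 genes lay on opposite sides of their controls. The exons of Rpl35 and Rpl23a overlap those of other annotated genes over 66.2% and 62.3% of their length, so their counts are less certain.

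The 2 proteins that join the 5S rRNA moved apart. Rpl5 and Rpl11 form with 5S rRNA the particle that also binds and inhibits Mdm2, the ubiquitin ligase of p53. Rpl5 had 41672 and 40595 normalised counts under R26 sg1, 51877 and 51573 under PC sg2 and 52250 and 50847 under PC sg5. Rpl11 had 27326 and 27790 under R26 sg1, 22866 and 22921 under PC sg2 and 24042 and 22617 under PC sg5. The log2 fold change was 0.33 ± 0.021 (SE; limma adjusted p = 5.82e-12) for Rpl5 and -0.25 ± 0.025 (SE; limma adjusted p = 9.40e-09) for Rpl11. Neither gene's PC libraries overlapped its controls. Exons of other annotated genes cover 26.7% of Rpl5 and 0% of Rpl11.

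The stalk that recruits elongation factors gave mixed values. Rplp0, its base and often used as a reference gene in PCR, had 148656 and 149221 normalised counts under R26 sg1, 135305 and 134260 under PC sg2 and 135867 and 131367 under PC sg5. All PC libraries were lower, at 90.1% of the control mean (log2 fold change -0.15 ± 0.018, SE), though quantile normalisation reversed the value to 0.21. Rplp1 rose by 0.10 on the log2 scale, a call lost without the intensity trend, and Rpl12, which sits at the stalk base, rose by 0.19. Rplp2 was at 0.024 ± 0.031 (SE) and did not pass, with overlapping groups, while after quantile normalisation it was at 0.14 and passed.

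In the small subunit, Rps6 rose most. Rps6, the substrate of the S6 kinases, had 34484 and 34783 normalised counts under R26 sg1, 44552 and 43831 under PC sg2 and 43137 and 43661 under PC sg5. Every PC library was above both controls, at 126.5% of their mean, and the log2 fold change was 0.34 ± 0.021 (SE; limma adjusted p = 2.46e-12). Rps15a followed at 0.33 and Rps3, a protein at the mRNA entry that also has a DNA repair activity, at 0.32.

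With both PC guides together, genes along the mRNA channel and the decoding site split evenly. Of 9 genes, 4 rose (Rps2, Rps3 and Rps23 among them), 4 fell (Rps15, Rps26, Rps28 and Rpsa) and Rps14 did not pass. That is 44.4% in each direction, beside 34.3% higher and 33.6% lower of all genes. With PC sg2 alone the counts were again 4 and 4, beside 32.9% and 31.6% of all genes. With PC sg5 alone 5 rose and 2 fell (55.6% and 22.2%, beside 32.6% and 31.8% of all genes). For Rps28 the control and PC libraries overlapped, and it did not pass with PC sg5 alone (limma adjusted p = 0.756). Rpsa, also known as a laminin receptor, had 83422 and 82749 normalised counts under R26 sg1, 75462 and 75920 under PC sg2 and 75986 and 74304 under PC sg5. Its log2 fold change of -0.14 ± 0.019 (SE) became 0.072 after quantile normalisation, and the values of Rps26 and Rps15 also changed sign there, to 0.015 and 0.066.

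Fau and Rack1 encode ribosomal proteins whose symbols the rule does not take. Fau, which encodes a ubiquitin-like protein fused to a small-subunit protein, rose by 0.17 on the log2 scale. Rack1, a scaffold on the small subunit, was at -0.12 with the deposited scaling and at 0.071 after quantile normalisation.

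Of the 5 paralogs 3 rose (Rpl22l1, Rpl36al and Rpl7l1) and none fell (60% and 0%, beside 34.3% and 33.6% of all genes). Of the parents of these 3, Rpl22 and Rpl36a fell and Rpl7 rose. The smallest p that 2 control and 4 PC libraries allow in an exact permutation test is 0.133 (two-sided, 15 splits), so the ratio of a paralog to its parent could not pass 0.05 in that test and is given by its values. In 4 of the 5 pairs the ratio did not overlap between control and PC libraries, the exception being Rps27rt. Such separation was common: for single genes, not ratios, all 4 PC libraries lay above both controls in 36.6% of all genes tested. They lay below both in another 36.6%. The proteins' own sequences are not shown, and identities below are between coding sequences of the annotation.

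Rpl22l1 rose as Rpl22 fell. Rpl22 is an RNA-binding protein of the large subunit that is known to lower Rpl22l1 RNA, and the 2 coding sequences are 67.5% identical. Rpl22l1 had 3630 and 3572 normalised counts under R26 sg1, 4427 and 4520 under PC sg2 and 4920 and 4493 under PC sg5. Rpl22 had 16608 and 16504 under R26 sg1, 12295 and 11852 under PC sg2 and 12937 and 12100 under PC sg5. The PC libraries therefore lay above the controls for the paralog and below them for the parent, and the count of Rpl22l1 went from 21.6 to 21.9% of that of Rpl22 to 36.0 to 38.1%. In limma the log2 fold changes were 0.35 ± 0.039 (SE; adjusted p = 5.82e-08) and -0.43 ± 0.029 (SE; adjusted p = 1.59e-11), and the log2 ratio rose by 0.78.

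Rpl36al, an expressed retrogene copy of Rpl36a with 87.7% of its coding bases identical, rose most of all members. It had 4568 and 4506 normalised counts under R26 sg1, 6817 and 6735 under PC sg2 and 6893 and 6778 under PC sg5, which is 150.0% of the control mean (log2 fold change 0.58 ± 0.031, SE; limma adjusted p = 2.76e-13). Rpl36a had 17450 and 17697 under R26 sg1 and between 15683 and 16937 over the PC libraries, and its log2 fold change of -0.11 no longer passed after quantile normalisation (-0.015), without the intensity trend, or with the length trend removed (-0.025). The paralog's PC libraries were all above its controls, and its count went from 25.5 to 26.2% of the parent's to 40.7 to 42.9%. Exons of another annotated gene cover 24.5% of Rpl36al.

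Rpl7l1, which is related to a yeast factor of large-subunit assembly, also rose. Its counts were 5480 and 5785 under R26 sg1, 8139 and 8554 under PC sg2 and 8162 and 8360 under PC sg5, a log2 fold change of 0.56 ± 0.033 (SE; limma adjusted p = 1.36e-12). Its parent Rpl7, with 54.4% identical coding bases, rose by 0.12 on the log2 scale, and both genes had every PC library above both controls. The count of Rpl7l1 relative to Rpl7 went from 9.26 to 10.0% to 12.5 to 13.6%.

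The Rps27 pairs changed least. Rps27l, a known p53 target, had 5738 and 5650 normalised counts under R26 sg1, 5816 and 5793 under PC sg2 and 6224 and 5957 under PC sg5. Its PC libraries were slightly higher, with a log2 fold change of 0.062 ± 0.032 (SE; limma adjusted p = 0.0945) that passed without PC sg5 replicate 2 (0.078), without the 50 most abundant genes in the total (0.11) and with the length trend removed (0.15). With PC sg5 alone Rps27l rose (0.097, limma adjusted p = 0.0279), and with PC sg2 alone it did not pass (0.028). Rps27 was at -0.075 ± 0.033 (SE; limma adjusted p = 0.0520) for both guides, with overlapping groups. With PC sg2 alone it fell (-0.13; limma adjusted p = 0.00505). For both guides it passed as lower in 6 of 18 alternatives, edgeR among them, with values from -0.11 to -0.074, and was above 0 in 2, at 0.012 after quantile normalisation and 0.015 with the length trend removed. Rps27rt has a coding sequence identical to that of Rps27 over all 252 bases, and its row held 94.6 to 116 normalised counts, 0.706 to 0.805% of those of Rps27. Reads from these 2 genes cannot be told apart over the coding sequence, and its value of -0.12 ± 0.18 (SE) is uncertain.

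**Figure D2:**
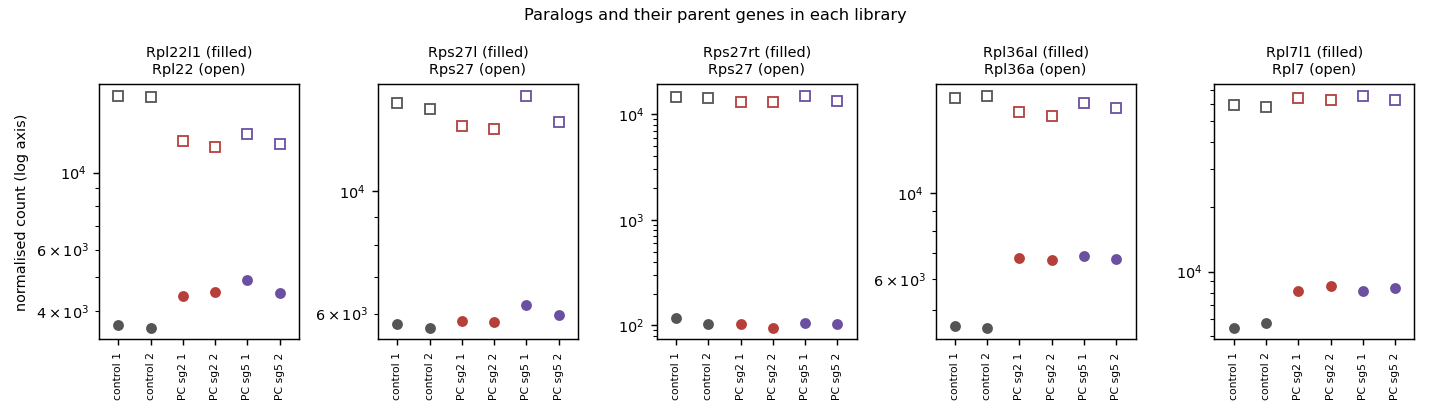
Normalised counts (y axis, log scale, a different range in each panel) of 5 paralogs (filled circles) and their parent genes (open squares) in each of the 6 libraries; grey is control, red PC sg2 and purple PC sg5. Rpl22l1, Rpl36al and Rpl7l1 stand higher in all 4 PC libraries than in both controls, and Rpl22 stands lower.

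Each guide alone gave similar counts. PC sg2 against the control had 39 members higher and 27 lower, 66 of 82, beside 64.5% of all genes (32.9% higher, 31.6% lower). PC sg5 against the control had 46 higher and 18 lower, 64 of 82, beside 64.5% (32.6% higher, 31.8% lower). Among genes that averaged 50 or more, 80.5% of members passed with PC sg2, beside 75.8% of those genes. With PC sg5 the shares there were 78% and 75.3%. These comparisons share the control libraries. For Rpl18 the log2 fold changes were 0.46 with PC sg2 and 0.45 with PC sg5, for Rpl37a -0.77 and -0.60, for Rpl22l1 0.31 and 0.38, and for Rpl36al 0.58 and 0.59. The intensity trend in limma mattered for these counts: without it 43 and 40 members passed (52.4% and 48.8%), beside 57.9% of all genes for either guide.

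Compared directly, 5 members were higher with PC sg5 than with PC sg2 and none lower (limma adjusted p), where 40 genes in all passed, 0.242% of those tested (0.139% higher). At an unadjusted p under 0.05 the count was 24 higher and 0 lower (29.3%), beside 10.6% of all genes in either direction, and edgeR and DESeq2 called 6 and 9 higher. The 5 were Rpl41, Rpl24, Rpl37a, Rps26 and Rps15. Rpl41 was at 70.6 and 71.0% of the control mean with PC sg2 and at 84.8 and 77.7% with PC sg5, a log2 difference of 0.20 ± 0.032 (SE; limma adjusted p = 0.00706). Rpl37a was at 59.4 and 58.0% with PC sg2 and at 67.4 and 64.6% with PC sg5, so that both guides were below control and PC sg2 further below. Rps26, which lies where the mRNA leaves the small subunit, was at 85.7 and 84.9% against 93.6 and 93.5%.

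Rpl24, a protein at the bridge between the subunits, was at 91.4 and 93.7% of control with PC sg2 and at 106.0 and 102.9% with PC sg5, with 47.0% of its exons overlapped by Gm28037. Rps15, at the decoding site, was at 89.1 and 89.0% against 98.7 and 95.4%. The log2 differences were 0.17 for Rpl37a, 0.17 for Rpl24, 0.13 for Rps26 and 0.12 for Rps15. Which members passed depended on the PC library left out. Each of these fits leaves 1 arm with a single library, assumed to vary like the other groups, so effect sizes are given. Without PC sg5 replicate 1 the differences of the 5 members were 0.10 to 0.15, and without PC sg5 replicate 2 they were 0.13 to 0.26. The differences of the 5 members stayed at 0.13 to 0.19 without PC sg2 replicate 1 and at 0.12 to 0.20 without PC sg2 replicate 2, beside 0.12 to 0.20 with all libraries. None of the 5 paralogs passed (0 also at an unadjusted p under 0.05, in edgeR and in DESeq2).

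**Figure D3:**
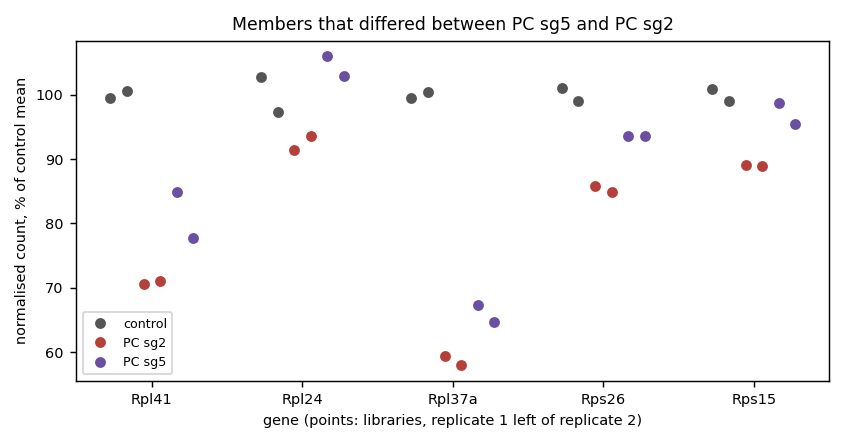
Normalised counts as a percentage of the control mean (y axis, not starting at 0) in each of the 6 libraries for the 5 members that differed between PC sg5 and PC sg2 (x axis); grey is control, red PC sg2, purple PC sg5. In each gene both purple points lie above both red points, and for Rpl37a all 4 lie between 58.0 and 67.4%.

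The difference between the guides followed the length of the coding sequence. Over 77 core genes the log2 difference of PC sg5 against PC sg2 had a Spearman correlation of -0.77 with coding length, given as a description because genes share libraries and are not replicates. Over the same genes it was -0.57 with transcript length and -0.46 with the control mean. Which of these features the difference follows was not tested. The median was 0.11 in 11 members with under 300 coding bases, 0.047 in 48 with 300 to 600 and -0.0056 in 23 with over 600. Over 16484 genes of the whole table the correlation with exon length was -0.10.

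Gradients with length also lay between replicates of the same guide. Replicate 1 against replicate 2 of PC sg5 correlated with coding length at -0.52, with a median difference of 0.16 in the shortest class. The same correlation was 0.50 for the control replicates, where short genes were lower in replicate 1, and 0.081 for those of PC sg2. Measured from the mean of PC sg2, replicate 1 of PC sg5 had a correlation of -0.78 and replicate 2 one of -0.56. A trend on exon length, fitted over all genes, was then removed from every library. That left 1 of the 5 calls between guides (Rpl41), while the differences of these 5 moved little. The members' gradient with coding length was not removed by it. The medians were still 0.093 under 300 coding bases, 0.027 from 300 to 600 and -0.026 over 600. Rpl24 was then at 0.16, Rpl37a at 0.15, and Rps26 and Rps15 at 0.11 each, and the median of all members went from 0.037 to 0.021.

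For both PC guides against the control the relation to length ran the other way and was weaker (Spearman 0.29 over 77 core genes). It differed by library. Core genes under 300 coding bases had medians against the control mean of -0.20 and -0.16 in the PC sg2 libraries. In PC sg5 these medians were 0.061 in replicate 1 and -0.13 in replicate 2. Of 11 members under 300 coding bases 1 rose and 5 fell (9.09% and 45.5%, median -0.097). Of 48 between 300 and 600 bases 27 rose and 12 fell (56.2% and 25%, median 0.082). Of 23 over 600 bases 16 rose and 5 fell (69.6% and 21.7%, median 0.14). Over all genes tested 34.3% were higher and 33.6% lower. With the length trend removed these counts were 3 and 4, 31 and 7, and 18 and 2, beside 38.9% and 29.7% of all genes.

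**Figure D4:**
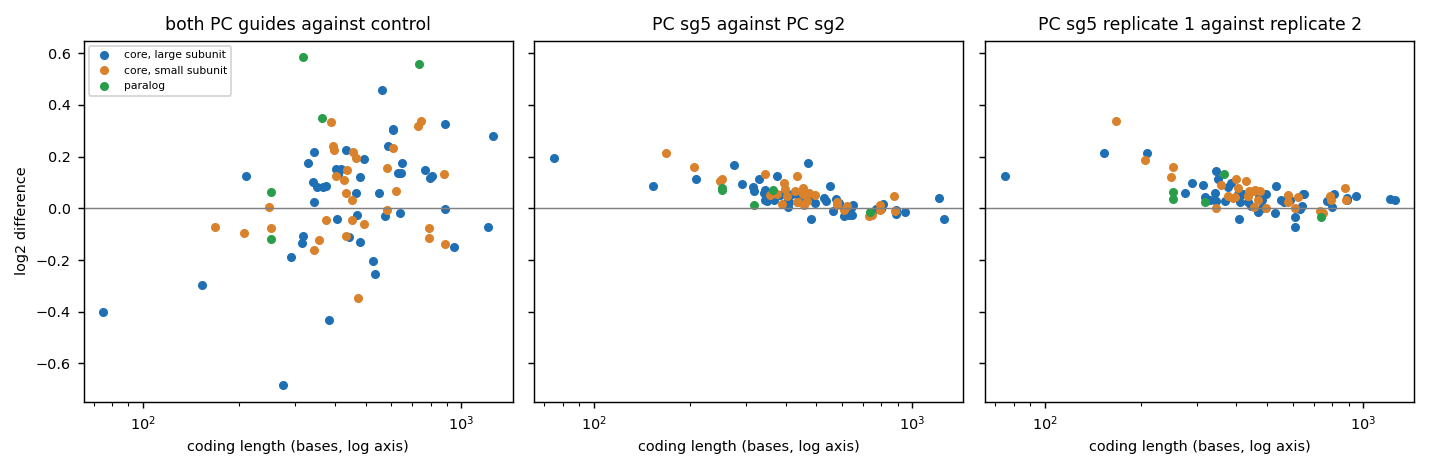
Log2 difference (y axis) against coding length in bases (x axis, log scale) for the 82 members in 3 comparisons; blue, orange and green mark large-subunit, small-subunit and paralog genes. Short genes lie lower in both PC guides against control (left) and higher in PC sg5 against PC sg2 (middle), and they also lie higher in replicate 1 than in replicate 2 of PC sg5 (right).

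Promoter entries were at hand for 62 of the 82 members, in windows of 250 bases before to 50 after the start. The C followed by at least 4 C or T at the annotated start, on the gene's strand only, occurred in 14 of the 62 (22.6%) beside 3.01% of 27025 genes. The letters CCGGAA, the core that ETS factors bind, were in 56.5% of the members' windows on either strand, beside 16.7% of all genes and 30.2% of genes in the deposited table. GGGCGG, bound by Sp1, was in 62.9%, beside 38.2% and 66.4%, and ATGGCG, part of the YY1 motif, in 30.6%, beside 10.2% and 17.0%. CACGTG, the E-box that Myc binds, was in 9.68%, beside 8.09% and 11.4%. Of the 14 members with the pyrimidine run 9 rose and 1 fell with the PC guides, and of 48 without it 23 rose and 15 fell. Over all genes tested 34.3% were higher and 33.6% lower. Rises and falls with CACGTG were 5 and 0 of 6 (27 and 16 of 56 without it). With GGGCGG they were 23 and 9 of 39 (9 and 7 of 23 without). With CCGGAA they were 16 and 9 of 35 (16 and 7 of 27 without). With ATGGCG they were 8 and 6 of 19 (24 and 10 of 43 without). Among the windows above, the pyrimidine run stands at the annotated start of Rps6, Rps15a and Rpl15, which rose. It does not stand at that of Rpl37a, Rpl41 and Rpl11, which fell. Nor does it stand at that of Rpl18, Rpl22l1, Rpl36al and Rpl7l1, which rose, and Rps10 carries it and fell. A run that begins a few bases away was not counted, and Rpl18 has such a run just after its annotated start. The differences between these counts were not tested, and these are matches of letters, not sites.

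Other mRNAs known for a TOP motif also moved both ways. Of 16 listed translation factors and related genes 8 rose and 6 fell (50% and 37.5%, beside 34.3% and 33.6% of all genes), with a median of 0.061. Eef1d, a subunit of the exchange factor of elongation factor 1, had the highest log2 fold change at 0.33, and Eif3e, a subunit of initiation factor 3, the lowest at -0.58. Eif3e had 24310 and 24196 normalised counts under R26 sg1 and 15665 to 16804 over the PC libraries, all below.

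Dedicated chaperones and assembly factors of ribosomal proteins mostly rose. Of 7 listed genes with a row, 6 rose and 1 fell (85.7% and 14.3%, beside 34.3% and 33.6% of all genes), with a median log2 fold change of 0.60 beside 0.074 for the members and -0.0093 for all genes. Ltv1, an assembly factor of the small subunit, had 1204 and 1171 normalised counts under R26 sg1, 2410 and 2251 under PC sg2 and 2524 and 2486 under PC sg5, which is 203.6% of the control mean and all above it. Tsr2, Grwd1, Heatr3, Bccip and Pdcd2l had log2 fold changes from 0.51 for Heatr3, which escorts Rpl5, to 0.75 for Pdcd2l. Aamp was the lowest at -0.12, and no longer passed without control replicate 1 (-0.084) or with the length trend removed (-0.051).

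Counts of ribosomal protein genes carry an uncertainty of their own because of their copies. Of the 50-base words in a member's transcript, a median of 61.7% also occurred in another annotated gene, from 0 to 98.6%, and in 54 of 82 members over 50% did. Across the 77 core genes this share had a Spearman correlation of 0.13 with the log2 fold change of both PC guides. The 63 left-out rows with a pseudogene symbol had 4 rises and 1 fall (6.35% and 1.59%, beside 34.3% and 33.6% of all genes). Their median control mean was 42.5 normalised counts, and 5 of them had a control mean above 1000. The highest was Rps2-ps13, a processed pseudogene on GRCm38 chromosome X (52898588 to 52899469, plus strand), with 71858 and 72274 normalised counts under R26 sg1, 81281 and 81670 under PC sg2 and 78261 and 79616 under PC sg5. The row of Rps2 itself, the small-subunit protein at the mRNA entry, had 20364 and 20313 under R26 sg1 and 21803 to 23326 over the PC libraries. The pseudogene row therefore held 77.9 and 78.1% of the 2 rows' counts under R26 sg1 and 77.0 to 78.8% under the PC guides, and the 2 rows had log2 fold changes of 0.15 and 0.13. Of the 50-base words of Rps2-ps13, 66.0% occur in annotated transcripts of Rps2, so reads of the 2 cannot be told apart over those stretches.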

How the data were processed

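Poly-A+ RNA of 6 libraries (3 groups, 2 each) was sequenced. Per the submitters' processing notes, the tools were DESeq2, featureCounts, STAR, Trimmomatic and bcl2fastq 2.17 and the build GRCm38; for settings, annotation and strand use, no source used here gives any. The table that the authors deposited holds a signal, read counts divided by 1 size factor per library. All values (100%, tolerance 0.01) were whole multiples of 1 step per library, so whole reads were recovered; the lowest row total was 61 and the floor of 3 reads lay at 2.18 to 6.41 normalised counts, for counting error only. Of the identifiers, 16498 received an M21 symbol and 42 did not.

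A gene needed 10 normalised counts or more in 2 or more libraries (16526 kept, 14 removed, all 82 members kept). Tests used limma (version 3.58.1, R 4.3.3) on the log2 of the deposited value plus 1, with 1 model of 3 groups, an intensity trend, 3 residual degrees of freedom and 17.3 prior ones (median), two-sided, Benjamini-Hochberg adjustment over all genes, threshold 0.05. Fold changes are on that scale. A paralog's ratio to its parent was tested by exact permutation (scipy 1.17.1). Lengths come from the best-ranked annotated transcript. edgeR 4.0.16 and DESeq2 1.42.0 on recovered reads were alternatives, with 16 other settings. The script was tested on simulated data. Members and lists were chosen with earlier results of these data known. Named are each paralog and parent, the 8 highest and 8 lowest core genes past the threshold, set genes (Rps6, Rpl5, Rpl11, Rplp0, Rplp1, Rplp2, Rpsa), members that differed between guides, the highest and lowest core level per kb, and the extremes of other lists. A few genes that this rule names are not reported here. Rps2-ps13 and Rps2 were named after their values were seen, as were the other chaperones. Replicate numbers were not used as a block because the labels do not tie them to a shared culture or day.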

Additional observations from a re-analysis of the deposited data

Results flagged for a closer look

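The direct limma contrast of PC sg5 against PC sg2, with Benjamini-Hochberg adjustment, called 5 members. None of them passed without the intensity trend, and Rpl41 alone passed with the length trend removed. A gradient with coding length lay between the guides (Spearman -0.77 over 77 core genes). It also lay between replicates 1 and 2 of PC sg5 (-0.52, median 0.16 under 300 coding bases). The part of this gradient in the 5 calls was not tested. The log2 differences were 0.20 for Rpl41, 0.17 for Rpl24, 0.17 for Rpl37a, 0.13 for Rps26 and 0.12 for Rps15. For each, both PC sg5 libraries lay above both PC sg2 libraries, in genes picked by that difference. Of 18 alternatives each, Rpl41 stayed past the threshold in 15, Rpl37a in 14, Rpl24 and Rps26 in 13 and Rps15 in 11, and the highest adjusted p was 0.628 for the first 4 and 0.646 for Rps15. Groups of 2 libraries are too small for a test of single outlying libraries.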

How the results depend on the processing

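Over 47 gene results and up to 18 alternatives each, 770 of 845 values kept direction and side of the threshold, 45 lost the call, 16 gained it and 14 reversed, and 24 results kept both in every alternative. Counts of members past the threshold moved as follows; where no cause is named it was not tested. Without the intensity trend 47 passed for both guides (57.3%; 62.4% of all genes), 43 for PC sg2 and 40 for PC sg5 (57.9% of all genes for either), 0 between guides (6 higher at an unadjusted p under 0.05; edgeR 6, DESeq2 9) and 13 were lower with both guides. With the length trend removed 13 were lower and 1 passed between guides (differences of the 5 members 0.11 to 0.17, beside 0.12 to 0.20), and after quantile normalisation 7 were lower. Leaving out each library in turn gave 61 to 68 members for both guides (40 to 47 higher, 21 to 26 lower), 58 to 66 for PC sg2, 59 to 64 for PC sg5 and 0 to 10 between guides, with fewer samples in each fit and 1 arm of a single library, assumed to vary like the others. The log2 ratio changes then spanned 0.77 to 0.80 (Rpl22l1), 0.67 to 0.71 (Rpl36al), 0.38 to 0.49 (Rpl7l1), 0.13 to 0.16 (Rps27l) and -0.11 to 0.022 (Rps27rt). Values that reversed under quantile normalisation were Rps27rt at 0.050, Rps27 at 0.012, Rplp0 at 0.21, Rpsa at 0.072, Rps26 at 0.015, Rps15 at 0.066, Rps20 at 0.051, Rack1 at 0.071 and the Rps27rt ratio at 0.038. Others were Rps27 with the length trend removed (0.015), Rplp2, which spanned -0.012 to 0.060 with single libraries left out (below 0 without control replicate 1 or PC sg5 replicate 1), the Rps27rt ratio without control replicate 1 (0.022), and Rpl24, at 0.020 without the 50 most abundant genes, at 0.066 with the length trend removed and spanning -0.063 to 0.014 with single libraries left out (above 0 without control replicate 1). With a replicate block 68 members passed for both guides and 10 between guides. The log2 difference of replicate 1 minus replicate 2 was also correlated between groups, across genes. For control with PC sg2, control with PC sg5 and PC sg2 with PC sg5 it correlated at -0.022, 0.025 and 0.031 across all genes. Across the 82 members these correlations were 0.30, -0.55 and -0.043. They were not over 0.1 in every pair, so same-numbered libraries were taken to share only a number. PC sg5 replicate 2, the shallowest library, limits low rows such as Rps27rt.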

Other observations

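Among the rows left out for encoding no ribosomal protein, 5 of 11 rose and 4 fell with both PC guides. That is 45.5% and 36.4%, beside 34.3% and 33.6% of all genes. Rps6kl1, a kinase-like gene, had the highest value at 1.16, on 17.2 and 6.53 normalised counts under R26 sg1 and 16.4 to 49.2 over the PC libraries, which overlap; it did not pass in 6 of 17 alternatives, edgeR and DESeq2 among them, with values of 0.53 (without control replicate 2) to 1.16. Rps6ka5, a nuclear kinase of the S6 kinase family, was the lowest at -0.62, on 363 and 396 under R26 sg1 and 237 to 265 over the PC libraries. Rps19bp1, whose product binds Rps19, had 1445 and 1545 under R26 sg1, 2500 and 2428 under PC sg2 and 2539 and 2616 under PC sg5; it was named after its values were seen. All PC libraries of Rps19bp1 lay above its controls and all of Rps6ka5 lay below.

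Other pseudogene rows with over 1000 normalised counts in the control held smaller shares of the pair they form with their parent. Rpl34-ps1 held 32.4 to 35.5% of the pair under R26 sg1 and 31.6 to 33.5% under the PC guides, and Rpl38-ps2, all of whose 50-base words occur in Rpl38, held 10.2 to 10.5% and 9.06 to 10.3%. Rpl3-ps1 and Rps19-ps6 held at most 9.96 and 7.08% of theirs. These rows were chosen by their level. The left-out Rpl37rt, a retrogene copy typed as a pseudogene, fell by 0.37 on the log2 scale, on 402 and 379 under R26 sg1 and 277 to 340 over the PC libraries.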
